A study of Mus musculus with 6 samples.

Results

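Tumour-infiltrating CD8+ T cells were sorted from C57/B6J mice of WT genotype inoculated with MC38, a colon carcinoma line of that species, and the RNA of their genes for ion channels, ion pumps, water channels and calcium handling is described here. The genes were chosen by symbol alone, as every entry of the deposited gene table in the potassium, calcium, sodium, chloride, TRP, Lrrc8, Piezo, anoctamin, Orai, Stim, Itpr, Ryr, sodium-potassium pump, calcium pump, connexin, pannexin, aquaporin and proton channel families. They number 70 of the 6467 genes in the table, and no proton channel gene is among them. The families were picked with earlier results of these data known. The αPD-1-IL-15-R group has 3 libraries, from mice given 30 µg of αPD-1-IL-15-R by intraperitoneal injection on days 14 and 17. The study's title describes this agent as anti-PD-1 that brings a concealed IL-15 to PD-1+ cells. The PBS group has 3 libraries from mice given PBS in its place. Sorting followed the day 17 injection by 48 hours. Neither anti-PD-1 nor IL-15 was given by itself, so what each contributes cannot be told apart. The labels give neither the age of the mice nor whether a library came from 1 mouse or a pool, so p-values measure only the spread between these libraries, which may be partly technical.

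In a T cell, engagement of the antigen receptor produces inositol trisphosphate, which opens Itpr channels and drains calcium from the endoplasmic reticulum. Stim proteins sense the emptied store and open Orai channels in the plasma membrane, and the calcium that enters acts through calcineurin on NFAT transcription factors. Potassium channels keep the membrane negative so that calcium can keep flowing in, some TRP channels alter that voltage, and the Atp2a and Atp2b pumps return calcium to the store or to the outside. Lrrc8 proteins form the volume-regulated anion channel, Piezo channels open on mechanical force, and connexins and pannexins form channels between cells or to the outside.

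The deposited table held only genes below a q-value of 0.05 in the authors' own test, so every one of the 70 had already passed it, as had 37.9% of the 17077 genes tested. Kcna3, Kcnn4 and Orai1, the genes usually named first for T cell potassium and calcium currents, were not in the table and are not analysed here. Reads over the table's genes numbered 8886351 to 9403710 in the αPD-1-IL-15-R libraries and 8484736 to 9248214 in the PBS libraries, and the 70 genes took 0.588% to 0.622% of them in αPD-1-IL-15-R libraries and 0.66% to 0.701% in PBS libraries. The sort label was checked on marker lists, in TPM, a level that allows for transcript length and library size. The 7 of 12 T cell markers in the table, Cd8b1 and Cd3d among them, summed to 4669 to 5514 TPM in αPD-1-IL-15-R libraries and 1601 to 4504 TPM in PBS libraries. Thy1, which is also on the fibroblast list, was the largest part in every library, at 2227 to 2610 against 755 to 2185 TPM. Cd8b1 had 822 to 1024 against 315 to 892 TPM. Markers of other cell types were also present: all 14 macrophage and monocyte markers summed to 395 to 1263 TPM in αPD-1-IL-15-R libraries and 3494 to 4811 TPM in PBS libraries, and 9 of 11 fibroblast markers (without Thy1, which mouse T cells also make) summed to 29.1 to 179.6 TPM against 638 to 1027 TPM. Sums for 7 of 8 pericyte and smooth muscle markers were 2.6 to 17.7 TPM in αPD-1-IL-15-R libraries and 57.2 to 89.4 TPM in PBS libraries, those for 7 of 9 endothelial markers 1.9 to 4.2 against 13.5 to 21.6 TPM, and those for 6 of 8 dendritic cell markers 9.4 to 11.8 against 33.6 to 78.5 TPM. The 9 of 10 NK cell markers summed to 3909 to 4762 TPM against 1362 to 3783 TPM. Nkg7 was the largest part in every library, at 2015 to 2448 against 874 to 2292 TPM. Ncr1 had 3.66 to 5.32 against 1.75 to 3.3 TPM. T cells can also make genes of this list, Nkg7 among them, so its sum does not measure NK cells. The 3 of 7 neutrophil markers summed to 35.8 to 82.8 against 39.8 to 46 TPM, and the B cell list had 1 of 6 members and the tumour or epithelial list 1 of 7. Cd209a and the fibroblast gene Lum were the markers listed at 0 in some library. In bulk libraries, fewer cells of a type and less RNA per cell cannot be told apart, and the part of other cell types in the results below was not tested.

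By the log2 changes of the authors' deposited table, αPD-1-IL-15-R libraries had more RNA of 27 of the 70 genes and less of 43, so 38.6% were higher, against 42.3% of all table genes. Their median log2 change in the authors' deposited table was -1.06, against -0.62 over the whole table. The edgeR quasi-likelihood fit took 64 of them past its filter on low counts and called 26 at an adjusted p under 0.05, where 37.2% of all fitted table genes were called. The 11 calls that rose stand beside a table background of 16.5%, and the 15 that fell beside one of 20.7%. Their adjusted p-values were close to the threshold, with 0.0402 the smallest, 0.0496 (Kcnj12) the last inside and 0.0506 (Cacnb4) the first outside. In edgeR 63 had an unadjusted p under 0.05, as had 6127 of the 6251 fitted table genes. DESeq2 called 63 of the 64, where it called 97.9% of the table genes, and limma-voom called 52, where it called 78.5%. The 6 genes with too few reads were Atp2c2, Kcnj10, Kcnj2, Piezo2, Scn2a and Trpm3, with at most 39 reads in any library.

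The calls held in some sets of libraries and not in others. With edgeR, none of the 70 was called without αPD-1-IL-15-R library 2, αPD-1-IL-15-R library 3, PBS library 1 or PBS library 3, while 52, 52, 51 and 47 genes in that order of libraries kept an unadjusted p under 0.05. In each of these 4 fits edgeR called 0 genes of the whole table as well. Without αPD-1-IL-15-R library 1, 51 were called, among them 24 of the 26 (not Atp1b3 or Panx1), and 4548 of the whole table. Without PBS library 2, 32 were called, among them 21 of the 26 (not Cacng8, Kcnk13, Lrrc8b, Scn8a or Trpm2), and 3018 of the whole table. In reads divided by the authors' library scaling (normalised reads), all αPD-1-IL-15-R libraries lay above all PBS libraries for 26 of the genes and below them for 42, where 99.3% of table genes separated in either direction. Cacna1d and Kcnmb4 were the 2 that overlapped. On the TPM scale the groups overlapped for 6 genes, all of them among the 27 higher: Ano10, Lrrc8b, Orai2, Orai3, Panx1 and Trpm4.

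**Figure D1:**
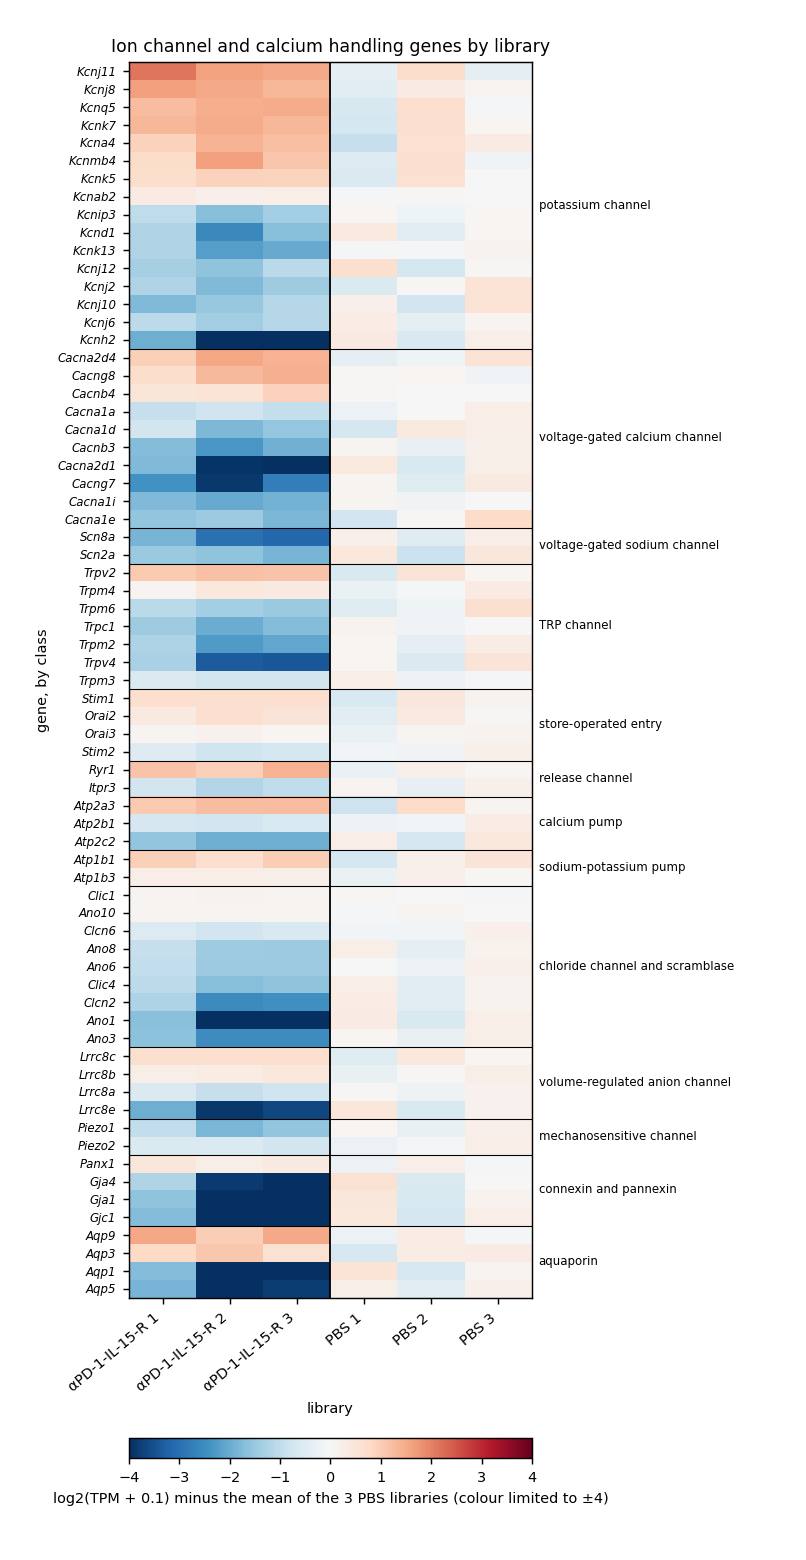
Each cell gives log2(TPM + 0.1) of a gene in 1 library minus the mean of the 3 PBS libraries, with genes grouped by class and ordered by change within it, and the αPD-1-IL-15-R libraries on the left. Of the 70 genes 1 is not drawn. Genes that were higher are red and those that were lower are blue in the αPD-1-IL-15-R columns, and the deepest blue (Gja1, Gjc1, Aqp1, Ano1, Kcnh2) lies in αPD-1-IL-15-R libraries 2 and 3 rather than 1.

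Directions depend on what the libraries are scaled to. With the authors' scaling the median edgeR log2 change of all table genes was -0.57, with TMM scaling -0.29, with median-ratio scaling -0.15 and with the 28 T cell receptor signalling genes of the table held level -2.12. Under T cell receptor gene scaling, 10 genes were still higher (Aqp9, Atp2a3, Cacna2d4, Cacng8, Kcna4, Kcnj8, Kcnk7, Kcnq5, Ryr1 and Trpv2, at 0.05 to 0.82). EdgeR called none of them under this scaling. Another 16 of the higher genes turned negative under it, at -1.08 (Clic1) to -0.01 (Kcnmb4), each above the table's median of -2.12. All 28 genes held level were themselves higher with the authors' scaling, so this step alone lowers smaller rises. It moves genes much alike, so their place above the median is no separate result. TMM scaling turned no gene. Median-ratio scaling turned Stim2 to 0.05, Atp2b1 to 0.04 and Clcn6 to 0.08.

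**Figure D2:**
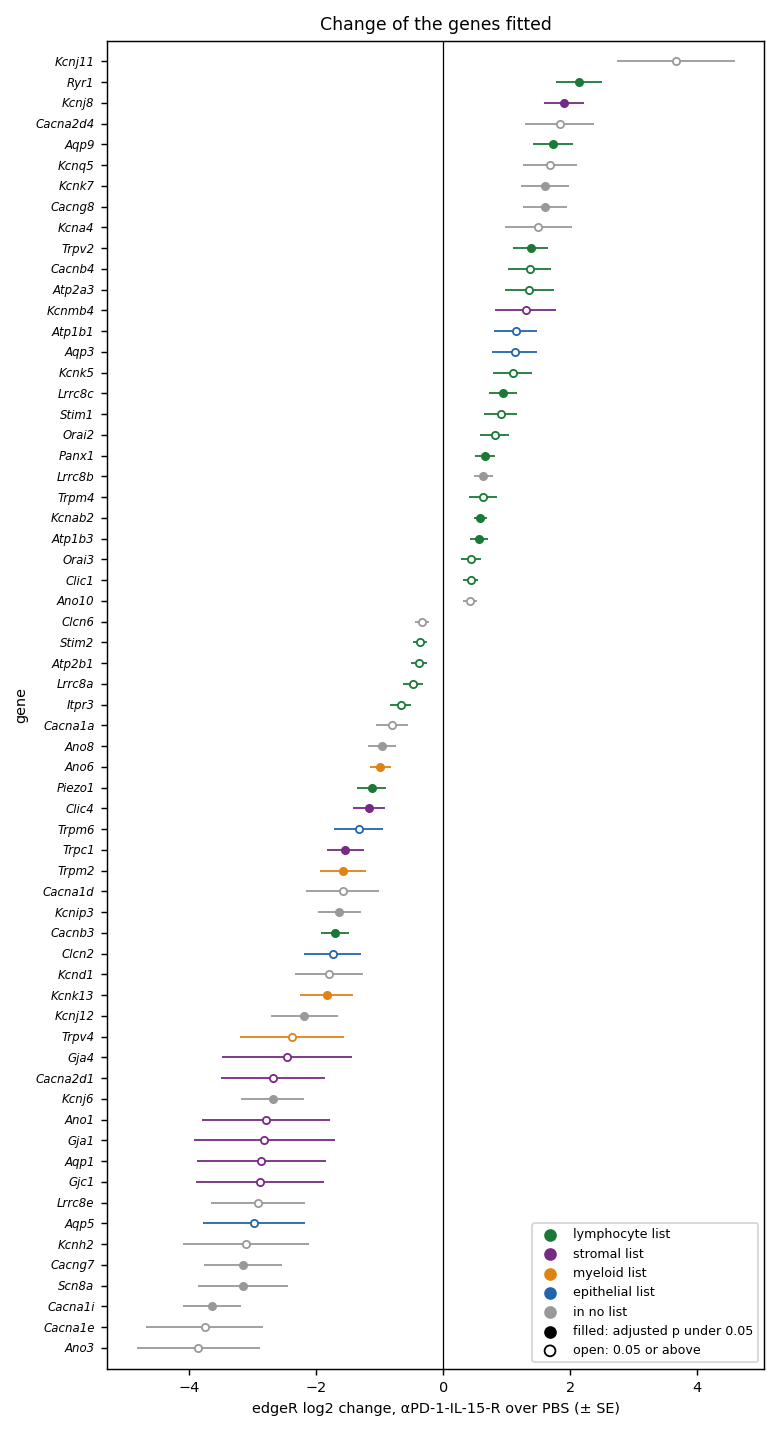
The horizontal axis gives the edgeR log2 change of αPD-1-IL-15-R over PBS with its SE for the genes fitted (1 of the 64 is not drawn), filled where the adjusted p was under 0.05 and coloured by the cell type list that holds the gene. With the authors' scaling, lymphocyte list genes stand mainly right of 0 and stromal list genes left of it, Kcnj8 and Kcnmb4 excepted, and under T cell receptor gene scaling the lymphocyte median is negative. The value of Kcnj11 rests on PBS counts at or near 0.

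In the authors' deposited table the store-operated calcium entry genes Stim1, Orai2 and Orai3 had positive log2 changes and Stim2 a negative one, with the first 3 negative under T cell receptor gene scaling and Stim2 positive under median-ratio scaling. Stim1, the main store sensor of T cells, had 27.7, 27.3 and 27.6 TPM in αPD-1-IL-15-R libraries 1 to 3, against 11.5, 23.9 and 19.3 TPM in PBS libraries 1 to 3. Its paralog Stim2, which responds to smaller losses of stored calcium, had 16.9, 13.9 and 14.6 TPM in αPD-1-IL-15-R libraries, against 22.2, 21.9 and 28.3 TPM in PBS libraries. All 3 αPD-1-IL-15-R libraries lay above the PBS libraries for Stim1 and below them for Stim2. Neither passed the edgeR test, with a log2 change of 0.90 (SE 0.26, adjusted p = 0.064) for Stim1 and -0.36 (SE 0.11, adjusted p = 0.0692) for Stim2. The ratio of Stim1 to Stim2 TPM within a library was 1.64, 1.97 and 1.89 in αPD-1-IL-15-R libraries and 0.518, 1.09 and 0.679 in PBS libraries. Being taken within a library, this ratio, chosen after its values were seen, does not depend on the scaling. Its groups could not overlap once Stim1 lay above and Stim2 below the PBS libraries in TPM, so it adds no support.

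Orai2 and Orai3 encode pore subunits related to Orai1. Orai2 had 32.1, 39.2 and 35.8 TPM in αPD-1-IL-15-R libraries, against 18.4, 32.1 and 25.7 TPM in PBS libraries. Orai3 had 14.4, 15.2 and 14.2 TPM in αPD-1-IL-15-R libraries, against 11.2, 14.5 and 14.8 TPM in PBS libraries. For each of them the groups overlapped in TPM, with PBS library 1 the lowest of the 6. The edgeR log2 changes were 0.81 (SE 0.23, adjusted p = 0.0616) for Orai2 and 0.43 (SE 0.16, adjusted p = 0.103) for Orai3. Over the 4 genes of this class edgeR called none, and all 4 had an unadjusted p under 0.05, as had 6127 of the 6251 fitted table genes. DESeq2 called 4 and limma-voom 2, where they called 97.9% and 78.5% of the fitted table genes.

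The 250 bases before the annotated starts of Stim1 and Stim2 are printed because this pair of sensors differed in direction. They come from RefSeq on GRCm38.p6, each on the plus strand, 5′ to 3′, at chr7:102267569-102267818 for Stim1 and chr5:53998273-53998522 for Stim2. Capitals mark any match on either strand to GGAAA (the core bound by NFAT), TGTGGT (bound by RUNX factors), GGGCGG (a GC box) or TATAAA, motifs of which none contains another.
Stim1: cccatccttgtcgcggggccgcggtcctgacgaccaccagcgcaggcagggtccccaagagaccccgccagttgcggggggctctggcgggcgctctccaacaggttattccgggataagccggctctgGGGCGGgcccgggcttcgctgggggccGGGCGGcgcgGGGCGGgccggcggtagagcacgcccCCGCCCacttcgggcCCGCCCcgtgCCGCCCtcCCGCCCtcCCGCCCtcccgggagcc
Stim2: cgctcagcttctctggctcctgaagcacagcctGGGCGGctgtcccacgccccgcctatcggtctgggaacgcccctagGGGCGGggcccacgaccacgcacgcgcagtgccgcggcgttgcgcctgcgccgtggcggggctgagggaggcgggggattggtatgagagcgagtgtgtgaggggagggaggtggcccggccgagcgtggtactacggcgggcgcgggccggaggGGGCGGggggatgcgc
Each held GC boxes, 8 matches before Stim1 and 3 before Stim2, with 31 and 30 CpG dinucleotides, and no match to the other motifs. Of the 60 of 70 genes with a promoter in the RefSeq table, 39 held a GC box, against 32.9% of all 27025 promoters of that length. GGAAA was in 7 of 24 promoters of higher genes and 17 of 36 of lower genes, against 55.6% of all promoters. TGTGGT was in 6 of 24 and 2 of 36, against 14.2%, and TATAAA in 1 of 24 and 3 of 36, against 13.0%. Median CpG counts were 17 in the higher genes, 15 in the lower genes and 6 in all promoters. A match is a description of letters, not of a bound site.

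**Figure D3:**
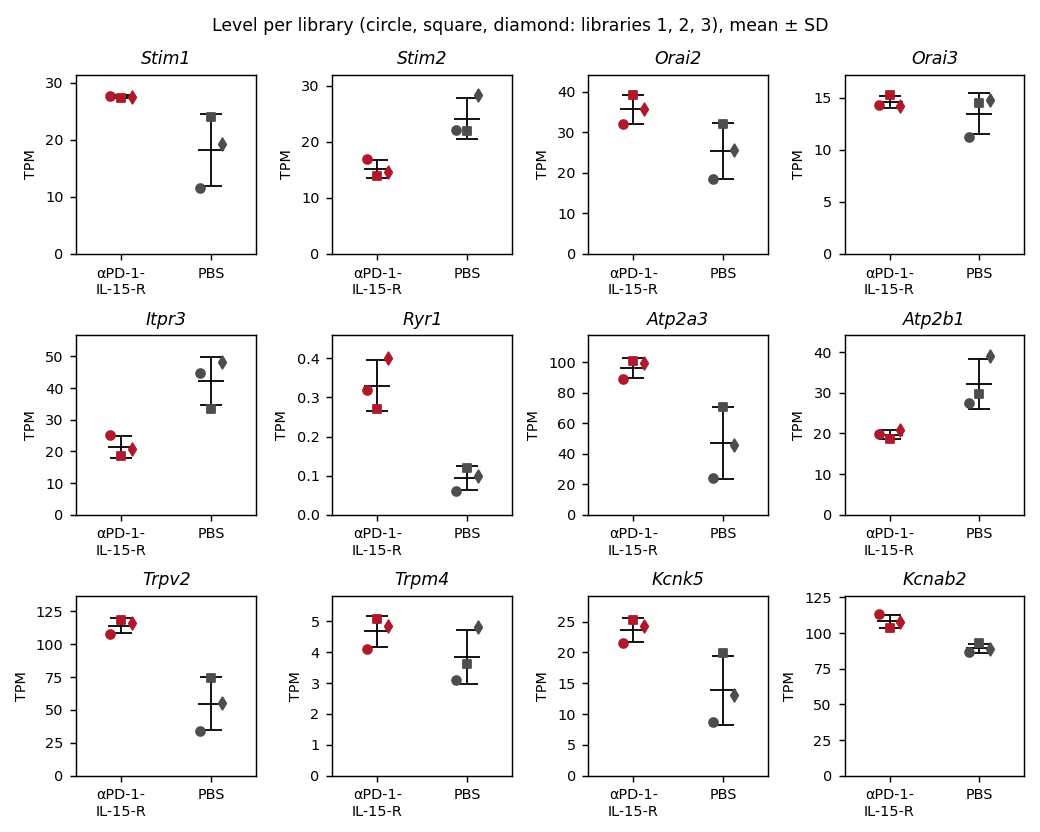
TPM per library of 12 genes of calcium entry, release, pumping and membrane voltage, with αPD-1-IL-15-R on the left, PBS on the right, and the mean ± SD of 3 libraries. Stim1, Atp2a3, Trpv2, Kcnk5, Kcnab2 and Ryr1 lie higher in all αPD-1-IL-15-R libraries and Stim2, Itpr3 and Atp2b1 lower, while Orai2, Orai3 and Trpm4 overlap.

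Calcium release and removal genes went in both directions, with Ryr1 and Atp2a3 positive under every scaling run, Itpr3 negative under each, and Atp2b1 positive under median-ratio scaling. Ryr1, a ryanodine receptor best known as the release channel of skeletal muscle, rose at a low level, with 56, 48 and 70 reads (0.32, 0.27 and 0.40 TPM) in αPD-1-IL-15-R libraries against 10, 19 and 14 reads (0.06, 0.12 and 0.10 TPM) in PBS libraries. All αPD-1-IL-15-R libraries were above the PBS libraries, at an edgeR log2 change of 2.14 (SE 0.36, adjusted p = 0.0402). Itpr3, an inositol trisphosphate receptor, had 25.04, 18.4 and 20.7 TPM in αPD-1-IL-15-R libraries and 44.9, 33.5 and 48.2 TPM in PBS libraries. Its groups did not overlap, and edgeR gave -0.67 (SE 0.17, adjusted p = 0.0522), just past the threshold. In level, Itpr3 stood far above Ryr1 in every library.

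Atp2a3, the SERCA pump of blood cells that refills the store, had 88.8, 100.5 and 99.6 TPM in αPD-1-IL-15-R libraries, against 23.98, 70.8 and 45.9 TPM in PBS libraries. Atp2b1, a plasma membrane calcium pump, had 19.8, 18.6 and 20.7 TPM in αPD-1-IL-15-R libraries, against 27.5, 29.6 and 39.1 TPM in PBS libraries. The αPD-1-IL-15-R libraries lay above all PBS libraries for Atp2a3 and below them for Atp2b1, though neither was called by edgeR (log2 1.36, SE 0.39, adjusted p = 0.0634 for Atp2a3, and -0.39, SE 0.12, adjusted p = 0.0785 for Atp2b1). Within a library, Atp2a3 had 4.48, 5.40 and 4.80 times the TPM of Atp2b1 in the αPD-1-IL-15-R group, and 0.871, 2.39 and 1.17 times in the PBS group. PBS library 2 held 2.84 times the normalised Atp2a3 reads of PBS library 1, and edgeR called Atp2a3 without PBS library 2 (log2 1.81) or without αPD-1-IL-15-R library 1 (log2 1.45). Atp2c2, a secretory pathway pump, had 1, 0 and 0 reads in αPD-1-IL-15-R libraries and 11, 4 and 11 in PBS libraries, too few to pass the filter of the reported fit. Of these 3 pumps edgeR fitted 2 and called none, both with an unadjusted p under 0.05, as had 6127 of the 6251 fitted table genes. DESeq2 called 2 and limma-voom 1, where they called 97.9% and 78.5% of the fitted table genes.

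Among 7 TRP channel genes, 2 had positive and 5 negative log2 changes in the authors' deposited table, and Trpm4 of the 2 turned negative under T cell receptor gene scaling. Trpv2, a cation channel of immune cells, had 107.8, 118.4 and 116.4 TPM in αPD-1-IL-15-R libraries, against 34.4, 74.3 and 55.6 TPM in PBS libraries. It rose by an edgeR log2 change of 1.37 (SE 0.28, adjusted p = 0.0436), with no overlap between groups, and was the TRP gene with the highest level in every library. Trpm4, a calcium-activated cation channel that depolarises T cells, had 4.11, 5.07 and 4.83 TPM in αPD-1-IL-15-R libraries and 3.09, 3.61 and 4.81 TPM in PBS libraries. It was not called by edgeR (log2 0.62, SE 0.22, adjusted p = 0.0945), and PBS library 3 lay inside the αPD-1-IL-15-R range.

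Trpm2, a cation channel opened by ADP-ribose and oxidative stress, fell by an edgeR log2 change of -1.58 (SE 0.36, adjusted p = 0.0469), at 0.67, 0.28 and 0.33 TPM in αPD-1-IL-15-R libraries and 1.81, 1.30 and 2.12 TPM in PBS libraries. Trpc1 fell as well, at 0.54, 0.34 and 0.42 TPM in αPD-1-IL-15-R libraries against 1.79, 1.47 and 1.63 TPM in PBS libraries (edgeR log2 -1.54, SE 0.30, adjusted p = 0.0411). For both genes the groups stood apart, and both were under 3 TPM throughout. Trpv4, Trpm6 and Trpm3 were lower without a call, the last at 1, 0 and 0 reads in αPD-1-IL-15-R libraries against 10, 5 and 7 in PBS libraries. Trpv4 had 0.88, 0.14 and 0.13 TPM in αPD-1-IL-15-R libraries and 2.43, 1.51 and 3.36 TPM in PBS libraries, so αPD-1-IL-15-R library 1 stood above the other 2 of its group. Trpm6, a magnesium channel, had 0.36, 0.28 and 0.25 TPM in αPD-1-IL-15-R libraries and 0.60, 0.77 and 1.44 TPM in PBS libraries.

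The 16 potassium channel genes divided into 8 higher and 8 lower, and of the 8 higher Kcnab2, Kcnk5 and Kcnmb4 turned negative under T cell receptor gene scaling. EdgeR called 3 of the 14 it fitted higher and 4 lower, where 16.5% of all fitted table genes were called higher and 20.7% lower. Kcnab2, a cytoplasmic subunit of voltage-gated potassium channels, had the highest level of the class, with 113.0, 103.6 and 107.8 TPM in αPD-1-IL-15-R libraries against 86.4, 92.9 and 88.9 TPM in PBS libraries. The difference was small next to the level, but both groups were tight and did not overlap. Kcnab2 rose by an edgeR log2 change of 0.58 (SE 0.10, adjusted p = 0.0402).

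Kcnk5, a background potassium channel, had 21.5, 25.2 and 24.3 TPM in αPD-1-IL-15-R libraries and 8.71, 19.9 and 13.0 TPM in PBS libraries, without overlap, and was not called by edgeR (log2 1.09, SE 0.31, adjusted p = 0.0631). Kcnk7, of the same family of background channels, had 13.3, 14.96 and 13.3 TPM in αPD-1-IL-15-R libraries and 3.21, 8.18 and 5.49 TPM in PBS libraries. It rose by an edgeR log2 change of 1.60 (SE 0.37, adjusted p = 0.0473), with every αPD-1-IL-15-R library above the PBS libraries. Kcnj8, a pore subunit of ATP-sensitive potassium channels that also marks pericytes, rose with 2.37, 2.15 and 1.89 TPM in αPD-1-IL-15-R libraries against 0.48, 0.90 and 0.76 TPM in PBS libraries (edgeR log2 1.90, SE 0.32, adjusted p = 0.0402). The pericyte and smooth muscle markers summed the other way, to 2.6 to 17.7 TPM in αPD-1-IL-15-R libraries and 57.2 to 89.4 TPM in PBS libraries. Which cells the Kcnj8 RNA came from was not tested. Kcnj11, the related pore subunit, had 18, 11 and 10 reads in αPD-1-IL-15-R libraries and 0, 3 and 0 in PBS libraries.

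Kcnq5, Kcna4 and Kcnmb4 completed the higher potassium genes, none of them called by edgeR. Kcnq5, a slow voltage-gated channel, had 2.54, 2.94 and 3.03 TPM in αPD-1-IL-15-R libraries and 0.62, 1.68 and 0.98 TPM in PBS libraries (edgeR log2 1.69, SE 0.42, adjusted p = 0.0522). Kcna4, an inactivating voltage-gated channel, had 0.69, 1.0 and 0.86 TPM in αPD-1-IL-15-R libraries and 0.12, 0.53 and 0.42 TPM in PBS libraries. Kcnmb4, a subunit of large-conductance calcium-activated channels, had 2.77, 5.36 and 3.65 TPM against 1.13, 2.62 and 1.48 TPM. For all 3 the PBS libraries had the same order, with library 2 the highest and library 1 the lowest.

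Among the 8 lower potassium genes the 4 called were low in every library, between 0.01 and 0.95 TPM. Kcnj6, a G protein-gated channel, fell with 9, 3 and 6 reads in αPD-1-IL-15-R libraries and 60, 26 and 43 in PBS libraries (edgeR log2 -2.68, SE 0.50, adjusted p = 0.0407). Kcnip3, a calcium-binding channel subunit, fell with 10, 5 and 7 reads against 31, 21 and 24 (edgeR log2 -1.64, SE 0.34, adjusted p = 0.0436). Kcnk13, a background channel known from microglia, fell with 13, 5 and 5 reads against 29, 29 and 32 (edgeR log2 -1.83, SE 0.42, adjusted p = 0.0467). The groups did not overlap for any of these genes. Kcnj12, an inward rectifier, fell with 7, 4 and 6 reads in αPD-1-IL-15-R libraries against 48, 15 and 24 in PBS libraries (edgeR log2 -2.19, SE 0.53, adjusted p = 0.0496). Kcnh2, known for the rapid repolarising current of the heart, was the most abundant of the lower group, at 2.5, 0.29 and 0.22 TPM in αPD-1-IL-15-R libraries and 12.7, 6.43 and 11.9 TPM in PBS libraries. It was not called by edgeR (log2 -3.11, SE 0.996, adjusted p = 0.0791), and without αPD-1-IL-15-R library 1 its log2 change was -4.99. Kcnd1, Kcnj2 and Kcnj10 were lower without a call, at no more than 1.52 TPM in any library.

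The 10 voltage-gated calcium channel genes were mostly low, and edgeR called Cacng8 higher and Cacnb3, Cacna1i and Cacng7 lower. Over the fitted table genes it called 16.5% higher and 20.7% lower. Cacnb3, a cytoplasmic beta subunit that T cells also make, had the highest level, with 4.29, 2.82 and 3.76 TPM in αPD-1-IL-15-R libraries against 15.5, 11.7 and 16.8 TPM in PBS libraries. It fell by an edgeR log2 change of -1.70 (SE 0.22, adjusted p = 0.0402). Cacna1i, a pore subunit of low-voltage-activated channels, fell with 4, 1 and 3 reads in αPD-1-IL-15-R libraries and 47, 31 and 36 in PBS libraries (edgeR log2 -3.64, SE 0.46, adjusted p = 0.0402). For these genes the 3 PBS libraries were all above the αPD-1-IL-15-R libraries.

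Cacng7 and Cacng8 belong to the gamma subunit family, several of whose members accompany AMPA glutamate receptors in brain, and they changed in opposite directions. Cacng8 had 26, 40 and 44 reads in αPD-1-IL-15-R libraries and 15, 14 and 11 in PBS libraries (edgeR log2 1.60, SE 0.35, adjusted p = 0.0446). Cacng7 had 9, 1 and 6 reads in αPD-1-IL-15-R libraries and 58, 38 and 62 in PBS libraries (edgeR log2 -3.15, SE 0.62, adjusted p = 0.0423). The Cacng8 call was lost when any of αPD-1-IL-15-R library 2 or 3 or any PBS library was left out of the edgeR fit.

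Cacnb4, the other beta subunit, had 17, 15 and 22 reads in αPD-1-IL-15-R libraries and 10, 6 and 7 in PBS libraries, and was not called. Cacna2d4, an alpha-2-delta subunit of the retina, had 16, 23 and 20 reads in αPD-1-IL-15-R libraries and 3, 4 and 11 in PBS libraries. Both were higher without passing the test (edgeR adjusted p = 0.0506 for Cacnb4 and 0.0684 for Cacna2d4), and Cacnb4 turned negative under T cell receptor gene scaling. Its relative Cacna2d1, an alpha-2-delta subunit of muscle and stromal cells, had 1.74, 0.31 and 0.28 TPM in αPD-1-IL-15-R libraries and 8.0, 3.98 and 7.17 TPM in PBS libraries. The pore genes Cacna1a, Cacna1d and Cacna1e were at or under 0.72 TPM in every library and lower without a call, and Cacna1d overlapped between groups in normalised reads. The sodium channel genes Scn8a and Scn2a, which carry action potentials in neurons, were both lower. Scn8a fell with 40, 6 and 11 reads in αPD-1-IL-15-R libraries and 220, 126 and 203 in PBS libraries (edgeR log2 -3.16, SE 0.71, adjusted p = 0.0468), and Scn2a had 3, 2 and 0 reads against 39, 10 and 37.

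Of the 4 volume-regulated anion channel genes, edgeR called 2 higher, each negative under T cell receptor gene scaling, and the other 2 were lower without a call. Of all fitted table genes 16.5% were called higher and 20.7% lower. Lrrc8a, the subunit every such channel needs, had 5.28, 4.21 and 4.52 TPM in αPD-1-IL-15-R libraries against 8.30, 6.88 and 9.0 TPM in PBS libraries. Lrrc8c, a partner subunit, had 77.8, 80.0 and 80.7 TPM in αPD-1-IL-15-R libraries against 35.9, 67.0 and 52.6 TPM in PBS libraries. Lrrc8b, another partner, had 7.73, 8.20 and 8.95 TPM in αPD-1-IL-15-R libraries against 5.40, 6.82 and 7.82 TPM in PBS libraries. Lrrc8c rose by an edgeR log2 change of 0.94 (SE 0.22, adjusted p = 0.0477) and Lrrc8b by 0.63 (SE 0.15, adjusted p = 0.0477), though both were negative under T cell receptor gene scaling (-0.42 and -0.81). Lrrc8a was not called by edgeR, at -0.48 (SE 0.16, adjusted p = 0.0865). The within-library ratio of Lrrc8c to Lrrc8a was 14.7, 19.0 and 17.8 in αPD-1-IL-15-R libraries and 4.32, 9.73 and 5.84 in PBS libraries. With Lrrc8c above and Lrrc8a below all PBS libraries in TPM, this ratio could not overlap. That of Lrrc8b to Lrrc8a was 1.46, 1.95 and 1.98 against 0.651, 0.991 and 0.869. The fourth gene of this class, Lrrc8e, had 0.84, 0.15 and 0.19 TPM in αPD-1-IL-15-R libraries and 4.84, 2.27 and 3.98 TPM in PBS libraries and was not called. Lrrc8a shares up to 2165 exon bases with the gene model Gm28035 on the same strand (GENCODE M21), so its reads could have been split between them.

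The promoters of Lrrc8a and Lrrc8c are printed for the same reason as those of the Stim genes, with the same source, build, strand and meaning of capitals, at chr2:30237519-30237768 for Lrrc8a and chr5:105519221-105519470 for Lrrc8c.
Lrrc8a: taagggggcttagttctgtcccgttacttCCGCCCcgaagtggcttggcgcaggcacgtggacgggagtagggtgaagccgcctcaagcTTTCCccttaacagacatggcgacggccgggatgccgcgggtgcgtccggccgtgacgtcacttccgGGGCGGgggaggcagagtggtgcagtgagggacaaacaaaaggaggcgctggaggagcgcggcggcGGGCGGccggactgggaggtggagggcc
Lrrc8c: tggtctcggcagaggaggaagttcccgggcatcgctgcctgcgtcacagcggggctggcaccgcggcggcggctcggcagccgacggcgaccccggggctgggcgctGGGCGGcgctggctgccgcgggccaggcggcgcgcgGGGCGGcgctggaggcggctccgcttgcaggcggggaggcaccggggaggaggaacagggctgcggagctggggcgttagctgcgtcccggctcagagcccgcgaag
GC boxes matched 3 times before Lrrc8a and 2 times before Lrrc8c, GGAAA matched 1 time before Lrrc8a, on the minus strand, and CpG dinucleotides numbered 25 and 35.

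**Figure D4:**
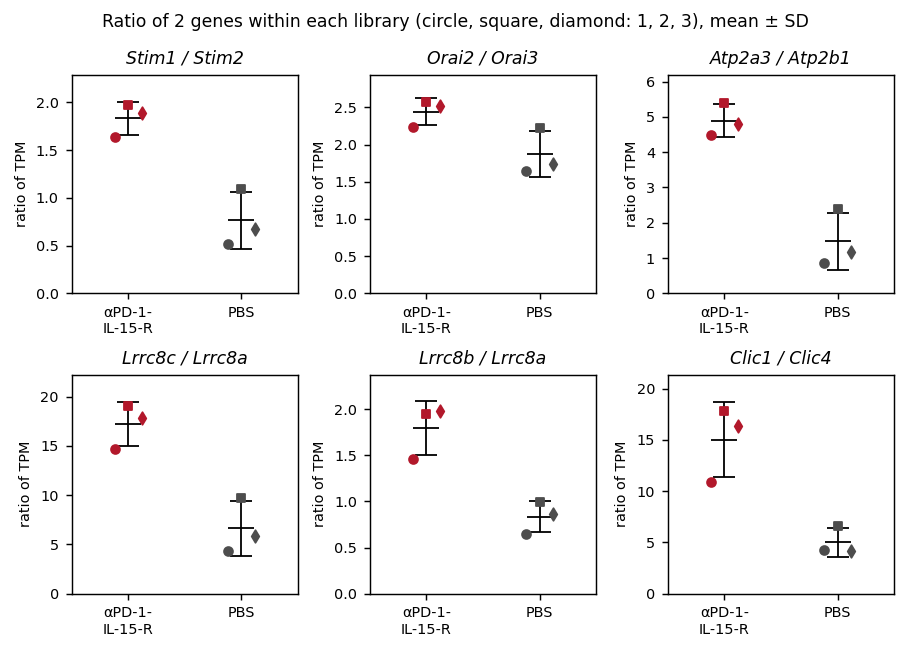
The ratio of the TPM of 2 genes of a class within each library, αPD-1-IL-15-R on the left and PBS on the right, with the mean ± SD of 3 libraries. These 6 pairs were picked after their values were seen, and in each of them the αPD-1-IL-15-R libraries lie above the PBS libraries, narrowly so for Orai2 over Orai3 (2.24 against 2.22 at the nearest). For Stim1 over Stim2, Atp2a3 over Atp2b1, Lrrc8c over Lrrc8a and Clic1 over Clic4 this order was fixed beforehand. In those pairs the first gene lay above all PBS libraries and the other below them. Of the 12 pairs computed, 3 overlapped and are not drawn: Stim1 over Orai2, Kcnk5 over Kcnab2 and Ano1 over Gja1.

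For the 9 chloride channel and scramblase genes, the authors' deposited table gives 2 positive and 7 negative log2 changes, the 2 turning negative under T cell receptor gene scaling and Clcn6 positive under median-ratio scaling. Clic1, a chloride intracellular channel protein, had the highest level of all 70 genes, with 825, 853 and 838 TPM in αPD-1-IL-15-R libraries and 801, 782 and 729 TPM in PBS libraries. It was not called by edgeR (log2 0.43, SE 0.12, adjusted p = 0.0589). Its relative Clic4 fell, with 75.9, 47.9 and 51.3 TPM in αPD-1-IL-15-R libraries and 189.8, 118.2 and 175.3 TPM in PBS libraries (edgeR log2 -1.16, SE 0.25, adjusted p = 0.0446). The ratio of Clic1 to Clic4 was 10.9, 17.8 and 16.3 in αPD-1-IL-15-R libraries and 4.22, 6.62 and 4.16 in PBS libraries.

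Ano6, a calcium-activated scramblase that exposes phosphatidylserine, fell with 26.5, 18.9 and 19.1 TPM in αPD-1-IL-15-R libraries against 53.1, 44.7 and 60.7 TPM in PBS libraries (edgeR log2 -0.99, SE 0.16, adjusted p = 0.0402). Ano8 fell with 13.8, 9.70 and 9.44 TPM in αPD-1-IL-15-R libraries against 30.8, 19.9 and 28.7 TPM in PBS libraries (edgeR log2 -0.97, SE 0.22, adjusted p = 0.0474), a call that median-ratio scaling removed (log2 -0.56). Both were lower in every αPD-1-IL-15-R library than in any PBS library. Ano1, the calcium-activated chloride channel of smooth muscle and pacemaker cells, had 8.32, 0.78 and 0.92 TPM in αPD-1-IL-15-R libraries and 33.5, 17.4 and 32.1 TPM in PBS libraries, and Ano10 had 22.3, 22.4 and 21.9 against 19.6, 21.97 and 20.1 TPM. Ano3, Clcn2 and Clcn6 were lower without a call, Clcn2 at 1.73, 0.63 and 0.68 TPM in αPD-1-IL-15-R libraries against 5.21, 3.07 and 4.65 TPM in PBS libraries. Clcn6, a lysosomal exchanger, had 7.78, 6.61 and 7.40 TPM against 10.46, 10.6 and 13.2 TPM, and Ano3 had 5, 0 and 0 reads against 31, 21 and 32.

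Piezo1, the mechanosensitive channel of many tissues including blood cells, fell with 27.4, 15.3 and 18.1 TPM in αPD-1-IL-15-R libraries against 57.6, 44.2 and 62.5 TPM in PBS libraries (edgeR log2 -1.13, SE 0.23, adjusted p = 0.0436). Its exons share up to 1490 bases with Ctu2 on the opposite strand, and the labels do not say whether counting used strand. Piezo2, the touch receptor of sensory neurons, had 2, 1 and 0 reads in αPD-1-IL-15-R libraries and 6, 7 and 12 in PBS libraries. Piezo1 libraries of the 2 groups stood well apart, αPD-1-IL-15-R library 1 being the highest of its group.

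Of the connexin and pannexin genes, the 3 connexins were lower and Panx1 higher, negative under T cell receptor gene scaling. Panx1, which releases ATP from cells, rose in edgeR (log2 0.66, SE 0.15, adjusted p = 0.0477), with 35.7, 30.7 and 33.7 TPM in αPD-1-IL-15-R libraries and 21.9, 31.4 and 25.4 TPM in PBS libraries, overlapping in TPM but not in normalised reads. Gja1, the main connexin of fibroblasts and muscle, had 205, 22 and 10 reads in αPD-1-IL-15-R libraries and 840, 364 and 573 in PBS libraries. Gja4, a connexin of vessels, had 23, 2 and 1 reads in αPD-1-IL-15-R libraries and 81, 31 and 44 in PBS libraries. Gjc1, also of vessel muscle, had 140, 11 and 18 reads against 605, 251 and 477. In each connexin αPD-1-IL-15-R library 1 lay between the other 2 of its group and the PBS libraries. EdgeR called none of the 3 connexins (adjusted p = 0.132 for Gja1, 0.152 for Gja4 and 0.0933 for Gjc1), while DESeq2 called Gja1 and Gjc1 and limma-voom all 3. Of the fitted table genes edgeR called 37.2%, DESeq2 97.9% and limma-voom 78.5%. The edgeR log2 changes of -2.82, -2.46 and -2.89 became -5.01, -4.82 and -4.74 without αPD-1-IL-15-R library 1.

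Of the 4 aquaporins 2 were higher and 2 lower, and Aqp3 of the higher ones turned negative under T cell receptor gene scaling. Aqp9, a channel for water and glycerol described in memory CD8+ T cells of mice, rose with 3.95, 2.65 and 3.87 TPM in αPD-1-IL-15-R libraries against 1.08, 1.61 and 1.26 TPM in PBS libraries (edgeR log2 1.73, SE 0.31, adjusted p = 0.0405). Aqp3, also a glycerol channel, had 3.76, 4.64 and 3.28 TPM in αPD-1-IL-15-R libraries and 1.35, 2.63 and 2.73 TPM in PBS libraries and was not called. Aqp1, the water channel of endothelium and red cells, had 26.5, 2.39 and 3.19 TPM in αPD-1-IL-15-R libraries and 128.7, 55.9 and 94.3 TPM in PBS libraries. Aqp5, known from glands, had 13, 1 and 2 reads against 58, 32 and 49. Aqp1 and Aqp5 were each lower in all αPD-1-IL-15-R libraries, with library 1 the highest of that group.

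The sodium-potassium pump is built of a catalytic alpha and a beta subunit. The beta subunit gene Atp1b3 rose in edgeR (log2 0.56, SE 0.14, adjusted p = 0.0494) but turned to -0.86 under T cell receptor gene scaling, with 221.9, 219.7 and 216.3 TPM in αPD-1-IL-15-R libraries against 151.9, 210.7 and 190.5 TPM in PBS libraries. By group mean it had the next highest level after Clic1 in both groups, and its PBS library 2 came close to the αPD-1-IL-15-R libraries. Atp1b1, the other beta gene, had 6.10, 5.05 and 6.22 TPM in αPD-1-IL-15-R libraries and 1.85, 3.55 and 4.52 TPM in PBS libraries, was not called and turned to -0.20 under T cell receptor gene scaling. Atp1b1 shares up to 383 exon bases with Nme7 on the opposite strand.

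Lists of channel genes known from lymphocytes and from stromal cells had medians of opposite sign under the authors' scaling, though not under T cell receptor gene scaling. The lists were drawn up with earlier results of these data known, so their counts and medians are descriptions and not tests. Of 32 lymphocyte list genes, 21 were in the table, 15 higher and 6 lower, with a median log2 change of 0.62 in the authors' deposited table, against -0.62 over all its genes, and edgeR called 7 higher and 2 lower, where it called 16.5% of all fitted table genes higher and 20.7% lower. These shares hold for the calls of the other lists below too. The 6 lower ones were Stim2, Itpr3, Atp2b1, Lrrc8a, Piezo1 and Cacnb3. Of 36 stromal list genes, 12 were in the table, 2 higher and 10 lower, with a median of -2.74 for the log2 changes the authors' deposited table gives. Of these edgeR called Kcnj8 higher and Clic4 and Trpc1 lower. The lymphocyte median was -0.85 under T cell receptor gene scaling and the stromal median stayed negative under each scaling run. Fibroblast markers without Thy1 summed to 29.1 to 179.6 TPM in αPD-1-IL-15-R libraries and 638 to 1027 TPM in PBS libraries, beside the stromal list. The 6 of 9 myeloid list genes in the table were all lower, Ano6, Trpm2 and Kcnk13 with a call, beside macrophage and monocyte markers at 395 to 1263 TPM against 3494 to 4811 TPM. Of 15 epithelial list genes 5 were in the table, Aqp3 and Atp1b1 higher and Aqp5, Clcn2 and Trpm6 lower, none called by edgeR. All 5 had an unadjusted p under 0.05, as had 6127 of the 6251 fitted table genes. DESeq2 called 5 and limma-voom 3, where they called 97.9% and 78.5% of the fitted table genes. The 26 genes in no list had 8 higher and 18 lower, where 42.3% of table genes were higher, and edgeR called 3 of the 24 it fitted higher and 8 lower.

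Libraries of a group differed among themselves, by different amounts for the stromal and the lymphocyte list. αPD-1-IL-15-R library 1 was the highest of its group in 38 of the 43 lower genes (88.4%, against 85.7% of all lower table genes). Relative to the mean of αPD-1-IL-15-R libraries 2 and 3, its normalised reads were a median of 6.05 times for the stromal list (range 0.54 to 13.95, 11 genes with a value) and 0.93 times for the lymphocyte list (range 0.77 to 1.49, 21 genes). The 11 genes above 4 times were Gja4, Gja1, Ano1, Kcnh2, Gjc1, Aqp1, Aqp5, Trpv4, Cacna2d1, Lrrc8e and Scn8a, which is 27.5% of the 40 lower genes with a value, against 26.9% of lower table genes. Without that library the edgeR log2 changes of these 11 lay between -5.01 (Gja1) and -3.86 (Trpv4), and all 11 were then called, against Scn8a alone with it. As the 11 were picked for high reads in that library, larger falls without it were built in. Over the whole table edgeR called 4548 genes without that library and 2327 with it. In the PBS group, library 2 was the highest in 20 of the 27 higher genes (74.1%, against 76.4% of higher table genes) and the lowest in 34 of the 43 lower genes (79.1%, against 83.2%). It held 2.71 times the T cell marker level of PBS library 1 (median of 7 markers), 2.84 times for Atp2a3, 2.02 times for Stim1 and 2.09 times for Trpv2, but 1.03 times for Kcnab2, 0.93 times for Clic1 and 0.98 times for Cacng8. The shares of genes were near those of the whole table.

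**Figure D5:**
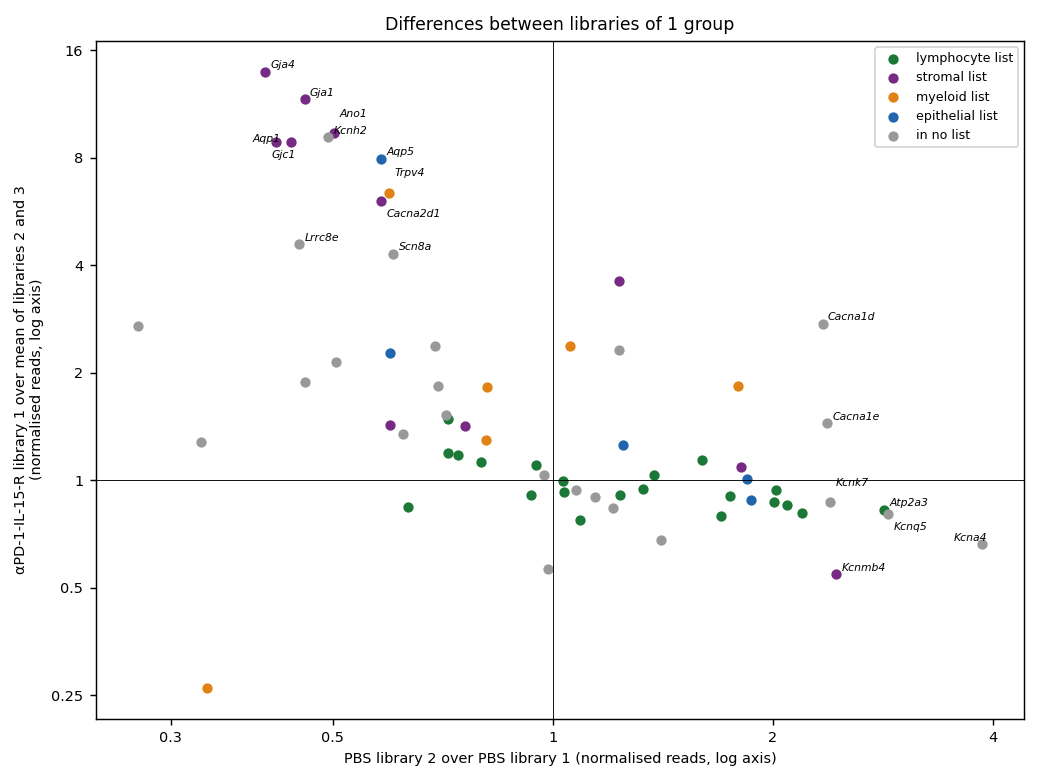
Each point is a gene, placed by the ratio of PBS library 2 to PBS library 1 (horizontal, log axis) and of αPD-1-IL-15-R library 1 to the mean of libraries 2 and 3 (vertical, log axis), in normalised reads. Stromal list genes such as Gja4 and Gja1 lie at the upper left, and lymphocyte list genes near 1 on the vertical axis, spread along the horizontal axis up to 2.84 for Atp2a3.

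Levels over the 70 genes summed to a slightly lower total in each αPD-1-IL-15-R library than in any PBS library, and their makeup differed. The summed TPM was 1922, 1855 and 1849 in αPD-1-IL-15-R libraries and 1978, 1953 and 2027 in PBS libraries. The 27 higher genes made up 1638, 1690 and 1669 TPM of it in αPD-1-IL-15-R libraries against 1244, 1475 and 1312 TPM in PBS libraries. The 43 lower genes made up 285, 165 and 180 TPM against 734, 478 and 714 TPM. The direction of each gene defined these sums, so they carry no test. Clic1, among the higher genes, was a large part, with 825, 853 and 838 TPM in αPD-1-IL-15-R libraries and 801, 782 and 729 TPM in PBS libraries. In TPM, 17 genes were above 10 in every library, Clic1, Atp1b3, Trpv2, Kcnab2, Atp2a3 and Lrrc8c leading in the αPD-1-IL-15-R group, and 19 were under 1 in every library, among them the called genes Ryr1, Cacna1i, Kcnip3, Kcnj6, Kcnj12 and Kcnk13.

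Calcium signalling genes outside these families, from a list of 69, had 38 in the table, 16 higher and 22 lower, with a median log2 change of -0.57 in the authors' deposited table. EdgeR called 8 higher and 10 lower (background 16.5% and 20.7%), and the 8 were all negative under T cell receptor gene scaling except Ppp3cc. Saraf, which slows store-operated entry, rose with 273, 265 and 267 TPM in αPD-1-IL-15-R libraries against 187, 232 and 211 TPM in PBS libraries (edgeR log2 0.67, SE 0.12, adjusted p = 0.0402). Ppp3cc, a calcineurin catalytic subunit, rose with 132, 153 and 153 TPM in αPD-1-IL-15-R libraries against 44.0, 100.2 and 65.2 TPM in PBS libraries (edgeR log2 1.39, SE 0.31, adjusted p = 0.0466). Its paralog Ppp3ca fell with 22.6, 18.0 and 18.2 TPM against 35.4, 31.8 and 39.5 TPM (edgeR log2 -0.55, SE 0.11, adjusted p = 0.0431). These calcineurin subunits thus changed in opposite directions, and their log2 changes under T cell receptor gene scaling were 0.07 for Ppp3cc and -2.05 for Ppp3ca. Other calls that rose were Camk2b, Camk2g, Letm1, Micu2 and Stk39, at edgeR log2 changes of 0.36 to 1.27, and those that fell besides Ppp3ca were Nfat5, Rcan1, Camk1, Cracr2b, Mcub, Slc8a1, Tpcn1, Pkd1 and Pkd2, at -2.31 to -0.96. Nfat5, a transcription factor responsive to salt stress, had 20.5, 21.3 and 21.5 TPM in αPD-1-IL-15-R libraries against 44.5, 51.8 and 62.3 TPM in PBS libraries, and Rcan1, an inhibitor of calcineurin that NFAT induces, had 8.09, 5.91 and 6.39 against 21.2, 13.9 and 24.3 TPM. Without αPD-1-IL-15-R library 2 or 3 or PBS library 1 or 3, edgeR called none of the 38, as it called 0 genes of the whole table, and 26, 28, 33 and 28 in that order had an unadjusted p under 0.05.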

How the data were processed

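The authors deposited an estimated count per gene in each of 6 libraries, with FPKM, TPM and log10 TPM, per the file headers. The log2 fold changes, p-values and q-values are also the authors' deposited values. HISAT2 and RSEM are named in the submitters' processing notes, while no build or version appears there. Between 88.7% and 90.1% of counts were whole.

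The deposited p-values gave the q-values when adjusted over 17077 genes (100.0%), of which the table holds the 6467 with q up to 0.0499. The authors' size factors were recovered from 3105 genes above 200 reads (median residual 0.00010, log2). They were 1.0122, 0.9137 and 0.9362 in αPD-1-IL-15-R libraries and 1.0836, 1.0269 and 1.0379 in PBS libraries. Counts were rounded and fitted over the whole table (6251 genes past filterByExpr) with edgeR 4.0.16 in R 4.3.3 (robust quasi-likelihood, two-sided, group as the term), scaled by these factors, with Benjamini-Hochberg adjustment over 17077 genes. The biological coefficient of variation was 0.366. The fit was tested on simulated data. TMM, median-ratio and T cell receptor gene scaling, DESeq2 1.42.0, limma-voom 3.58.1, no filter, leaving out each library and a replicate block were alternatives. Exact permutation of 3 against 3 libraries cannot go below p = 0.1 and was not used. TPM changes used a pseudocount of 0.1. RefSeq promoters (GRCm38.p6) are 250 bases.

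Genes named are those edgeR called, the lymphocyte list genes, and the 3 highest and most changed of each class. Members and lists were chosen with earlier results of these data known. FPKM and log10 values were not analysed further. Members with fractional counts in some library were Atp1b1, Cacna1d, Cacng7, Clcn2, Kcnj6, Kcnk7 and Piezo1. Exons of Ano3, Ano8, Cacna1d and Clcn2 overlap a neighbouring coding gene on the other strand. Some genes that enter the counts are not reported here by name.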

Additional observations from a re-analysis of the deposited data

How the results depend on the processing

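All counts here are members past an adjusted p of 0.05. Of the 26 called by edgeR with the authors' scaling (11 higher, 15 lower), median-ratio scaling gave 45 (24 higher), TMM scaling 19 higher, and T cell receptor gene scaling 0 higher and 31 lower. With the other tools, DESeq2 called 63 (27 and 36) and limma-voom 52 (22 and 30). Adjustment over the table alone gave 63 (27 and 36), and no filter on low counts 23 lower. Leaving out each library in turn gave 0 to 51 calls, 0 to 17 higher and 0 to 34 lower, with 0 to 4548 calls over the whole table. For calcium genes outside the families (18 called) DESeq2 gave 38, limma-voom 30, the table alone 38 and leaving out a library 0 to 26. These calcium gene counts stand beside the same whole-table counts. In direction alone, without regard to p, 10 members were higher under T cell receptor gene scaling, against 27 under the authors' scaling.

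The lymphocyte list's median of 0.62 was 0.90 with TMM scaling, 1.06 with median-ratio scaling, -0.85 with T cell receptor gene scaling and 0.28 on deposited TPM. The stromal median of -2.74 is that of the authors' log2 changes over 12 genes. Over the 10 genes that the reported edgeR fit kept, the edgeR median was -2.57. Among the other edgeR fits it was -4.07 with T cell receptor gene scaling, and -4.41 (without αPD-1-IL-15-R library 1) to -2.12 over leaving out each library in turn. The median log2 change on the TPM scale was -1.09 with a pseudocount of 0.1, -1.37 with 0.01 and -0.35 with 1.

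With T cell receptor gene scaling these genes reversed: Ano10 -1.05, Aqp3 -0.22, Atp1b1 -0.20, Atp1b3 -0.86, Cacnb4 -0.14, Clic1 -1.08, Kcnab2 -0.89, Kcnk5 -0.22, Kcnmb4 -0.008, Lrrc8b -0.81, Lrrc8c -0.42, Orai2 -0.57, Orai3 -1.01, Panx1 -0.75, Stim1 -0.42 and Trpm4 -0.85. Median-ratio scaling reversed Atp2b1 (0.04), Clcn6 (0.082) and Stim2 (0.053). All 28 genes held level in the first scaling were themselves higher, a step that alone lowers smaller rises. Any further cause was not tested. Same-numbered libraries deviated together for numbers 1 (r = 0.60) and 2 (r = 0.60) but not 3 (r = -0.24). αPD-1-IL-15-R library 3 correlated best with PBS library 2. Deviations from a mean of 3 libraries are tied to each other, so these values cannot settle whether the numbers pair the libraries. A replicate block gave 24 lower and 39 calls in all, where the whole table had 4337 with the block and 2327 in the reported fit. Genes outside the deposited table were not analysed here. The 6 members with at most 39 reads in any library were kept out of the reported fit by its filter. All 70 were fitted without it, and 36 were then called, where 2843 genes of the whole table were.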
